A study of Drosophila melanogaster with 4 samples.

Results

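The euchromatic part of the X chromosome carried 6401 accessible regions in flight-muscle-enriched thoracic muscle of Drosophila melanogaster, out of 44429 regions on the main chromosome arms (2L, 2R, 3L, 3R, 4 and X). A region was counted here when the summit of a deposited peak, its point of highest signal, lay on X between 0.5 and 22.5 Mb. Peaks of different libraries that overlapped by 1 bp or more formed 1 region. The 6401 regions came from 16252 peaks, with 4471 in control 1, 4170 in control 2, 3598 in mutant 1 and 4013 in mutant 2.

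The assay was ATAC-seq, in which a transposase inserts sequencing adapters into open DNA. Both genotypes carried the white allele w[1118]. The mutant also carried Pgk[Delta.E2F], a Pgk allele whose upstream E2F site was mutated, and both of its libraries came from the single line 12. Pgk encodes the glycolytic enzyme phosphoglycerate kinase. Each genotype had 2 libraries, each made from a pool of at least 40 pharate animals, 96 h after puparium formation at 25 °C. The labels do not say whether the pools of a genotype were collected independently, so differences between replicates may be partly technical. The sex of the animals is not given in the sources used here.

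Male flies have a single X and females a pair. In males the MSL complex, which contains the non-coding RNAs roX1 and roX2 and the acetyltransferase Mof, binds active X-linked genes, acetylates histone H4 and raises their transcription. This process is known as dosage compensation. Several components of the contractile apparatus of flight muscle are encoded on X, among them troponin I (wupA), troponin T (up) and alpha-actinin (Actn).

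The labelled tissue was checked against marker genes by asking for a peak summit within 500 bp of either end of the gene. Over all genes of the main arms, 34.2% had such a peak in all 4 libraries. Of 8 flight muscle markers, 7 had such a peak in all 4 libraries, and the eighth, flightin (fln), lacked it in mutant 1. Of 3 neuronal markers, elav had a gene-end peak in all 4 libraries, Appl lacked one in mutant 1 at this distance, and nSyb had one in control 2 alone. The yolk protein genes Yp1, Yp2 and Yp3, which mark female fat body and ovary, had a gene-end peak in 0 of 4 libraries. Of the 2 hemocyte markers, Hml had no gene-end peak in any library and lz had one in both controls. The list of other cell types held 6 genes in the interval, of which elav alone was called in all 4 libraries. An accessible gene end is not a measure of transcription, so these calls do not give a cell-type makeup.

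The borders of the interval fell in places where peaks continued on both sides. The last summits outside its left border lay at X:499891 to X:499936 and the first inside at X:509385 to X:522551, depending on the library. On the right, the last summits inside lay at X:22491512 to X:22495505, and the first outside at X:22507197 to X:22523651. Peaks just inside and outside spanned ranks from the top 0.706% to the bottom of their lists, where rank is the percentile of a peak by the authors' −log10 p within its own list.

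Regions were spread unevenly along the arm. In 22 bins of 1 Mb the number of regions had a lowest value of 174, a median of 274.0 and a highest value of 574. The sparsest bin ran from 3.5 to 4.5 Mb and held 132, 119, 103 and 122 peaks in controls 1 and 2 and mutants 1 and 2. The densest bin was the last one, from 21.5 to 22.5 Mb, with 403, 385, 314 and 459 peaks in the same order. A second dense bin, from 1.5 to 2.5 Mb, held 441 regions and 325, 308, 259 and 283 peaks. The last bin was the densest and the second bin the next densest in each library. The lowest count fell in this sparse bin in control 2 and mutant 2, and in other bins in control 1 and mutant 1. In the last bin mutant 2 exceeded both controls, while in the second bin control 1 had the most peaks. The autosomal bins of 2L, 3L and 3R ranged from 118 to 474 regions with a median of 331.5.

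The last bin went against the euchromatic label. Only 28.5% of its bases lay in annotated genes and 44 genes started there, against 61.8% to 95.0% of bases and 84 to 177 gene starts in the other 21 bins. Over the 22 bins the number of regions and of gene starts had a Pearson r of -0.108, given as a description. Peak counts per bin had an r of 0.978 between the controls and 0.922 between the mutants, also as a description, since all bins of a library share its depth. Comparisons below that depend on the last bin are given with and without it.

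**Figure D1:**
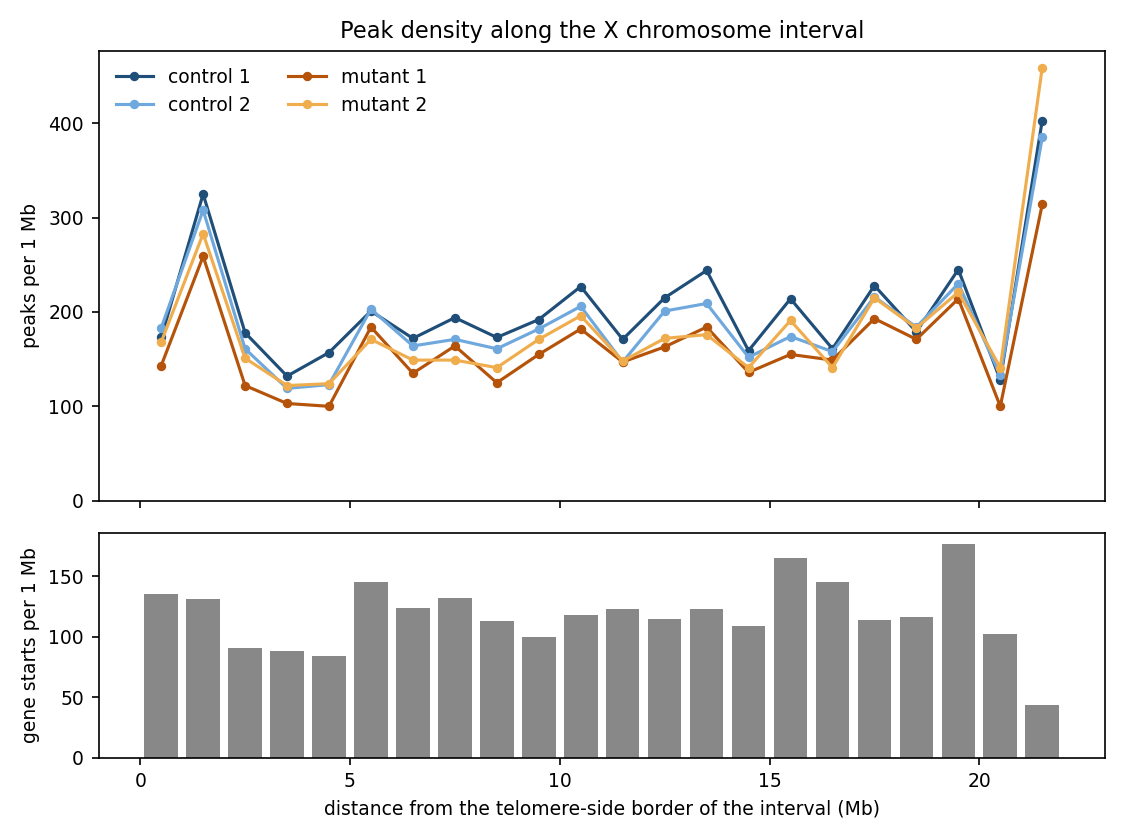
Peaks per 1 Mb (upper axis) and annotated gene starts per 1 Mb (lower axis) against distance from the telomere-side border of the X interval in Mb, with 1 line per library. All 4 lines rise in the second bin and reach their highest value in the last bin, where mutant 2 has 459 peaks and only 44 genes start.

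At the scale of 100 kb the 220 windows held a median of 27.0 regions, with a range from 0.0 to 81.0. Of the 5 densest windows, 4 lay in the last 1 Mb bin. The densest, X:22000001-22100000, held 81 regions, 32 of them in all 4 libraries, and overlapped no annotated gene. The fifth, X:2100001-2200000, held 64 regions and 23 genes, among them csw, which encodes a tyrosine phosphatase of receptor signalling, the Polycomb group gene ph-p, and wapl, which encodes a regulator of cohesin.

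Long stretches without any region broke up the arm. The longest gap, X:7327156-7481096, spanned 153.9 kb and overlapped 24 genes, and the next, X:7482231-7604601, spanned 122.4 kb. Between them lay a single region. A gap of 110.3 kb at X:12785156-12895487 covered most of Pde9, a cyclic nucleotide phosphodiesterase gene of 111.8 kb with 2 regions. Of 6400 gaps between neighbouring regions, 187 were longer than 20 kb, while the median gap was 946.5 bp.

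Most peaks were short. Median peak width on X was 128 and 134 bp in controls 1 and 2, and 117 and 112 bp in mutants 1 and 2. The tenth percentile ran from 65 to 80 bp and the ninetieth from 255.0 to 322.0 bp over the libraries. Merged regions had a median width of 129 bp. Only 171 of them (2.67%) reached 500 bp and 15 (0.234%) reached 1000 bp, and all 15 had a peak in all 4 libraries.

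Several of the widest regions lay in genes known for repeated coding sequence. The widest of all, X:12061294-12063564 (2271 bp), overlapped the mucin gene Muc11A, the teneurin gene Ten-a and lncRNA:CR43960, and was 1 peak of 2202, 2251, 2202 and 2260 bp in the 4 libraries. X:14279153-14281158 (2006 bp) and X:14285956-14287880 (1925 bp) lay in Muc12Ea, another mucin gene. X:563662-565641 (1980 bp) lay in Appl, which encodes the fly amyloid precursor-like protein. X:6277258-6278656 (1399 bp) lay in Ubi-p5E, which encodes polyubiquitin. Mucin and polyubiquitin genes consist largely of tandem repeats, and how reads with several matches were treated is not given in the sources used here, so the signal in these regions is uncertain.

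Recurrence was split between regions of all libraries and regions of 1. On X, 2086 regions (32.6%) had a peak in all 4 libraries, against 30.3% over all main arms, and 2260 (35.3%) were called in 1 library, against 37.0%. Regions of all 4 libraries had a median width of 218 bp, those of 3 libraries 139.5 bp, those of 2 libraries 122 bp and those of 1 library 85.0 bp. Merging more libraries widens a region by itself, but the peaks themselves followed the same order. In control 1 the median width of a region's strongest peak was 187 bp in regions of all 4 libraries and 79.0 bp in regions it alone had. The median rank in control 1 was the top 20.8% for regions of all 4 libraries, 48.0% for 3, 68.5% for 2 and 76.4% for regions of its own.

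Each library shared a different part of its X regions. Mutant 1 had the most regions of its own, 692 of 3449 (20.1%), followed by control 1 with 649 of 4362 (14.9%), mutant 2 with 455 of 3825 (11.9%) and control 2 with 464 of 4102 (11.3%). Among 1024 regions called in 3 libraries, mutant 1 was the missing library in 713 (69.6%). The same share was 57.7% on 2L, 3L and 3R. The controls shared 3321 regions, which were 76.1% of those of control 1 and 81.0% of those of control 2. The mutants shared 2364, or 68.5% and 61.8% of their regions. Control 1 and mutant 2 shared 3094 regions, or 70.9% and 80.9%, so mutant 2 shared more X regions with control 1 than with mutant 1.

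Position relative to genes changed with recurrence. Of the regions in all 4 libraries, 43.8% lay within 500 bp of a gene end, 41.4% lay inside a gene away from its ends, and 14.8% lay in no gene and away from gene ends. Of the regions in 1 library, 26.5% lay near a gene end and 63.8% inside a gene. On 2L, 3L and 3R the shares near a gene end were 46.0% and 29.0%. Over all X regions 34.6% lay near a gene end and 12.1% lay outside genes and away from their ends.

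**Figure D2:**
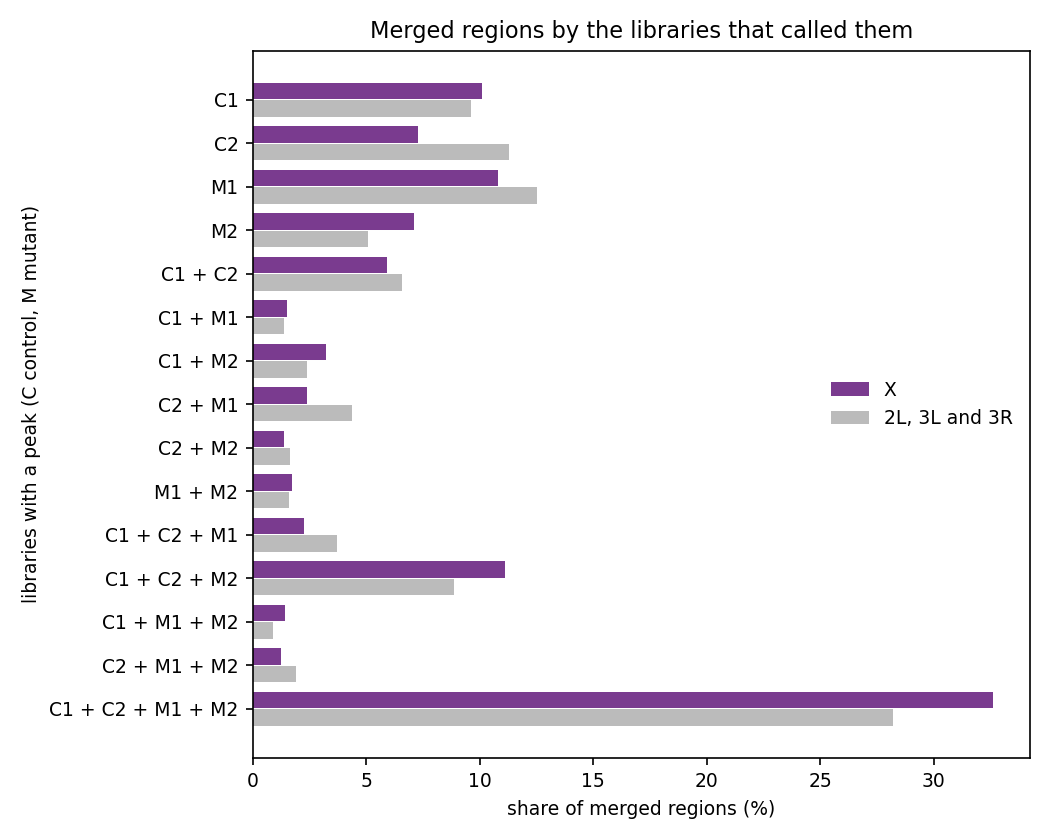
Share of merged regions, in percent, for each of the 15 combinations of libraries that called them, for X (6401 regions) and for 2L, 3L and 3R (22397 regions). Regions of all 4 libraries make up 32.6% on X and 28.2% on the autosomes, and regions that lack a call only in mutant 1 make up 11.1% and 8.87%.

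Fewer X peaks were called in the mutants. The controls had 4320.5 ± 212.8 peaks and the mutants 3805.5 ± 293.4 (SD, n = 2 each), a difference of -515.0 peaks. The groups did not overlap, but the gap between control 2, with 4170, and mutant 2, with 4013, was smaller than the spread within either genotype (exact permutation test, two-sided, p = 0.333, which is the floor for 2 against 2). With every list cut to its 25528 strongest peaks on the main arms, the number in the shortest list, the difference was -68.5 peaks (exact permutation p = 0.667). X peaks covered 750.6 and 729.7 kb in the controls and 529.2 and 597.4 kb in the mutants, a difference of means of -176.8 kb (exact permutation p = 0.333). The groups did not overlap in covered length, and the difference was larger than the spread within either genotype.

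Median X peak width was 131.0 ± 4.24 bp in the controls and 114.5 ± 3.54 bp in the mutants (SD, n = 2), a difference of -16.5 bp larger than the replicate spread (exact permutation p = 0.333). The local background moved with both differences. Its most frequent value, solved from the authors' fold enrichment and −log10 p, was 7.44 in control 1 and 7.61 in control 2, against 4.62 in mutant 1 and 5.26 in mutant 2. The read depth is unknown, and the part of depth in the differences was not tested.

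Relative to the autosomes, the number of X peaks did not follow genotype. X peaks were 23.9% of the euchromatic peaks of X, 2L, 3L and 3R in control 1, 21.5% in control 2, 22% in mutant 1 and 25.1% in mutant 2. The genotypes overlapped, with a mutant mean above the control mean by 0.774 percentage points (exact permutation test, two-sided, p = 0.667). The highest shares were those of mutant 2 and control 1. The share of the list that lay on Y was also highest in those libraries, at 3.24% in mutant 2 and 3.10% in control 1, against 2.75% in control 2 and 2.44% in mutant 1. This split crosses the genotypes and was seen in the values, so it was not tested.

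Regions called by the pair of controls but by no mutant, termed control-only, numbered 378 on X, 5.91% of its regions against 5.93% over all main arms. The reverse, mutant-only regions, numbered 111, or 1.73% against 1.76%. Both shares lay at the background. Mixed pairs also had X regions that no other library called. There were 206 for control 1 with mutant 2 (3.22%, against 2.89% over all main arms) and 152 for control 2 with mutant 1 (2.37% against 3.56%). Control 1 with mutant 1 had 97 (1.52% against 1.34%), and control 2 with mutant 2 had 87 (1.36% against 1.71%). Over all main arms the largest mixed pair was control 2 with mutant 1. The mutant pair thus had fewer regions of its own than the mixed pairs of control 1 with mutant 2 and of control 2 with mutant 1.

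Along the arm, both controls exceeded both mutants in 15 of 22 bins of 1 Mb (68.2%), against 80.9% of the autosomal bins, and both mutants exceeded both controls in 0. At equal list length 4 of the 22 X bins had both controls above both mutants.

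The strongest control-only and mutant-only regions were moderate peaks. The 3 best-ranked control-only regions each lay near a gene end. X:17907596-17907728 was at Vps4, which encodes an ATPase of the ESCRT machinery for membrane scission, with ranks of 17.4% and 18.4% in the controls. X:19276873-19276944 was at CG32536 and X:10857374-10857474 at sofe. Of the mutant-only regions, X:21846631-21846754 lay 55900 bp from the nearest gene, lncRNA:flam, and X:22278786-22278856 lay 26372 bp from CG41562. The third, X:17199513-17199609, was inside baz, which encodes the cell polarity protein Bazooka (Par-3), with ranks of 42.4% and 26.3% in mutants 1 and 2. The median mean rank was 68.7% over all control-only and 74.5% over all mutant-only regions, and calls shared by a pair of libraries also occurred between genotypes, so none of these regions can be said to follow genotype.

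Compared with 2L, 3L and 3R, X peaks stood higher in their lists. The median rank of X peaks was 43.1%, 40.3%, 46.3% and 45.4% in controls 1 and 2 and mutants 1 and 2, where a lower percentile is a stronger peak. For autosomal peaks it was 48.1%, 52.0%, 53.4% and 49.5%. X was stronger in 4 of 4 libraries, by -6.95 percentile points on average (exact sign-flip permutation test over libraries, two-sided, p = 0.125, the smallest that 4 libraries allow). It also had the lowest median percentile of the 4 arms in each library. The median summit pileup, the solved signal height at the summit, was 48, 44, 26 and 35 on X and 44, 36, 24 and 32 on the autosomes (exact sign-flip permutation p = 0.125). The excess on X was widest in control 2, at 1.22 times the autosomal median, and 1.08 to 1.09 times in the other libraries. Copy number of the X in these pools is unknown, and its part in the difference was not tested.

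Per Mb, X was not set apart over the whole interval. X had 203.2, 189.5, 163.5 and 182.4 peaks per Mb and the autosomes 205.8, 220.4, 185.4 and 174.0, so X was lower in 3 of 4 libraries and higher in mutant 2 (mean difference -11.7, exact sign-flip permutation p = 0.375). Without the last 1 Mb X was lower in 4 of 4, by -21.5 peaks per Mb (exact sign-flip p = 0.125). The X interval has fewer genes, 117.9 per Mb against 152.6. Counted per gene, X had 1.72, 1.61, 1.39 and 1.55 peaks and the autosomes 1.35, 1.44, 1.21 and 1.14 (higher in 4 of 4 libraries; exact sign-flip permutation p = 0.125). Without the last 1 Mb the mean difference per gene went from 0.280 to 0.154, with the same p. Median spacing of summits was shorter on X in 4 of 4 libraries, by -198.9 bp (exact sign-flip permutation p = 0.125), and without the last 1 Mb by -62.1 bp (p = 0.500 in the same exact test). Peak width hardly differed between X and autosomes, with medians of 128 and 128 bp in control 1, 134 and 135 bp in control 2, 117 and 118 bp in mutant 1, and 112 and 114 bp in mutant 2.

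Gene ends took up less of the X, and the comparison depends on whether this is allowed for. Of X peaks 36.6%, 34.8%, 31.5% and 36.8% lay within 500 bp of a gene end, against 40.6%, 36.4%, 32.1% and 39.7% of autosomal peaks (lower in 4 of 4 libraries; exact sign-flip permutation p = 0.125). Without the last 1 Mb the direction turned, and the mean difference was 0.667 percentage points (exact sign-flip p = 0.375). Positions within 500 bp of a gene end make up 16.7% of the X interval and 20.7% of the autosomal ones. Divided by this territory, the share of peaks at gene ends was 2.2, 2.09, 1.89 and 2.21 times that of bases on X and 1.96, 1.76, 1.55 and 1.92 times on the autosomes. X was higher in 4 of 4 libraries on this scale (exact sign-flip permutation p = 0.125), and also without the last 1 Mb.

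**Figure D3:**
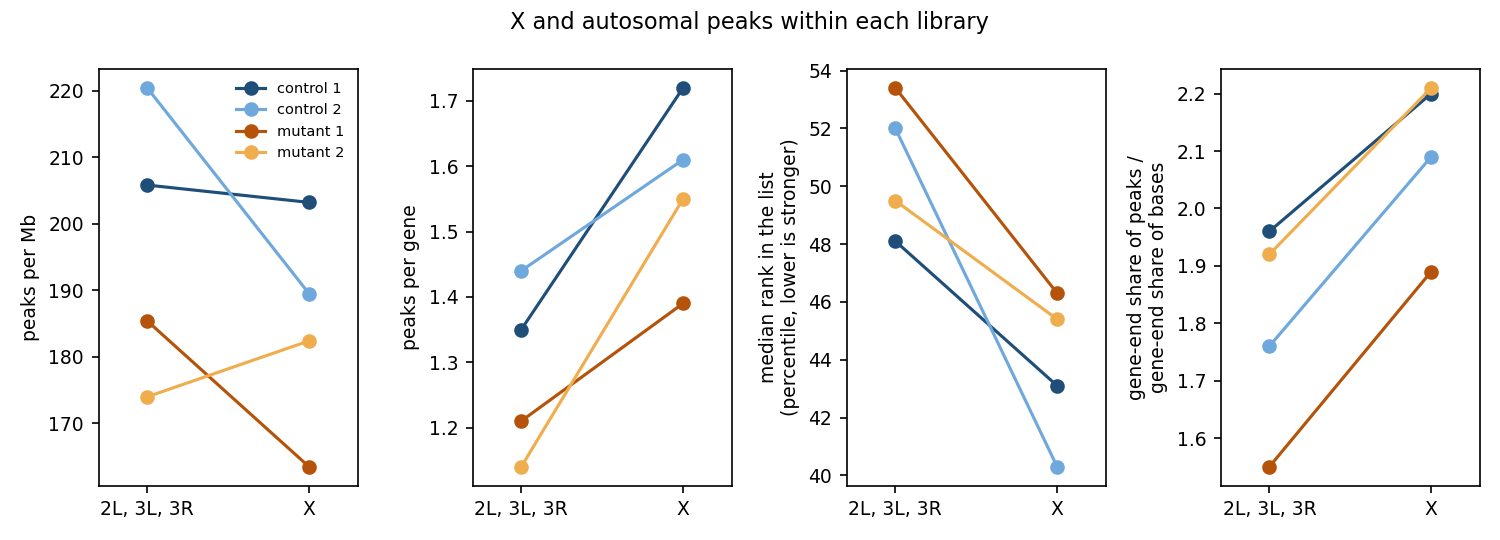
Peaks per Mb, peaks per gene, median rank in the list (percentile) and the gene-end share of peaks over that of bases, for autosomal (2L, 3L, 3R) and X peaks, with 1 line per library and axes that do not start at 0. Peaks per gene and the gene-end ratio are higher on X in all 4 libraries and the rank percentile is lower, while the lines for peaks per Mb do not share a direction.

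Genes with the most regions were mostly long ones. Of 2594 genes in the interval, 1684 (64.9%) overlapped at least 1 region and 120 overlapped 10 or more. The median gene had 1.0 region. Of the regions, 73.3% overlapped 1 gene, 10.7% overlapped more than 1 and 16% overlapped none. The 10 genes with the most regions held 429 regions, 6.70% of all. Across genes, length and number of regions had a Pearson r of 0.729, as a description, since a long gene has more room for regions.

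The gene with the most regions was lncRNA:flam, the flamenco locus (X:21631891-21790731, 158.8 kb), with 84 regions, 25 of them in all 4 libraries. Flamenco is a source of piRNAs, small RNAs that silence transposons, and is made largely of transposon remnants. Reads from such remnants can match many places, so its calls are uncertain. It had 53, 54, 40 and 57 regions in controls 1 and 2 and mutants 1 and 2, and mutant 2 had the most.

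The gene br (broad, X:1575132-1664869, 89.7 kb), which encodes zinc-finger factors of the response to ecdysone, the hormone of metamorphosis, had 35 regions, 13 of them in all 4 libraries. It lies within Mur2B, a mucin-related gene of 145.2 kb with 60 regions, so the regions of br are counted in both. Hr4, a nuclear receptor gene of the same response (66.0 kb), had 34 regions, of which 18 (52.9%) were in all 4 libraries, the highest such share of the 10 genes. Hr4 had 29, 27, 23 and 29 regions in controls 1 and 2 and mutants 1 and 2, so its libraries differed little outside mutant 1.

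The adhesion gene kirre (394.1 kb), known for its part in myoblast fusion, had 56 regions at a low density of 1.42 per 10 kb, and only 8 were in all 4 libraries. The zinc-finger gene mamo had 46 regions, 15 in all 4 libraries, with 35 and 31 in controls 1 and 2, against 22 and 23 in mutants 1 and 2. The cAMP phosphodiesterase gene dnc had 40, with 32 and 31 in the controls, against 18 and 22 in mutants 1 and 2. In both genes the control counts lay above the mutant counts, as they did in Sh and lncRNA:CR44999 and for the number of X peaks as a whole. In the rest of the 10 genes the genotypes overlapped. How many of all X genes had this order was not counted. The potassium channel gene Sh had 35 regions, with 26, 27, 20 and 21 in the 4 libraries. Among the remaining genes were lncRNA:CR44999, with 39 regions, which spans the same start as Myc, and lncRNA:CR44357, with 35.

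**Figure D4:**
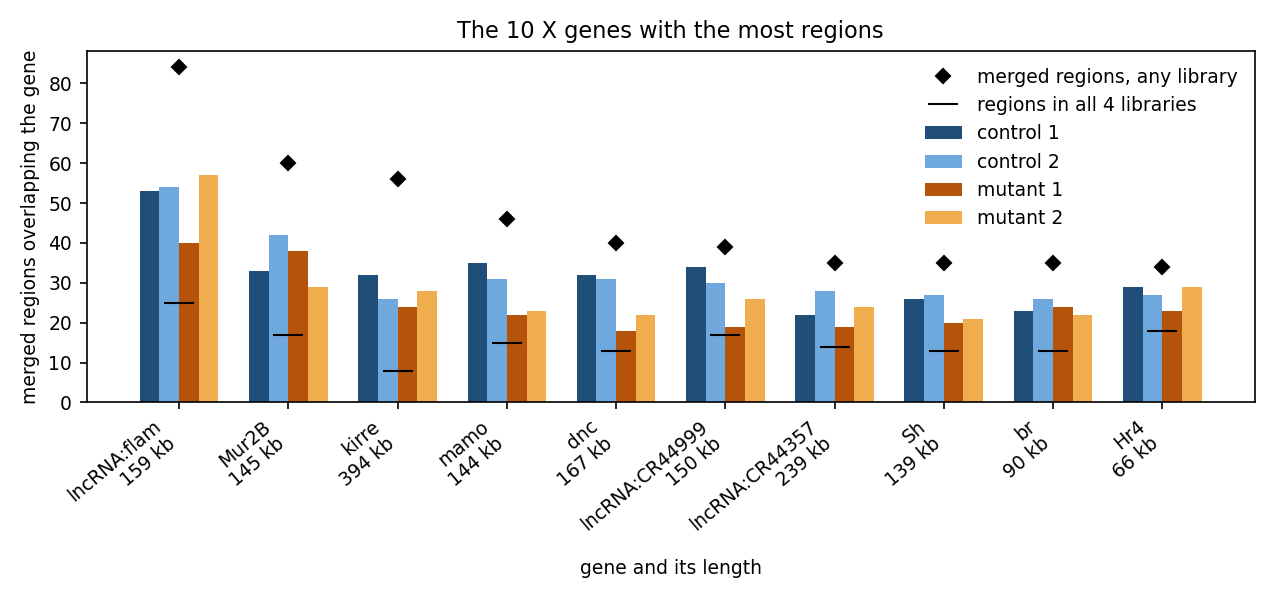
Number of merged regions overlapping each of the 10 X genes with the most regions, with the gene's length in kb below its name. Bars give the regions of each library, diamonds those of any library and dashes those in all 4 libraries. The bars of lncRNA:flam are the tallest and reach 57 in mutant 2, and the dash of Hr4, at 18, lies closest to its diamond, at 34.

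Length did not set the number of regions alone. Among the 73 genes of at least 50 kb, density ran from 0 to 5.48 regions per 10 kb with a median of 1.27, against 2.91 over the whole interval. The corepressor gene Smr had the highest value, 32 regions in 58.4 kb, followed by lncRNA:flam with 5.29 and Hr4 with 5.15. At the other end, cac, which encodes a voltage-gated calcium channel of neurons (53.8 kb), overlapped 0 regions, and CG45002 (97.7 kb) overlapped 1, called in mutant 2. Among genes of at least 5 kb the 5 densest were hpRNA:CR46342 with 17.0 regions per 10 kb, CG32772 with 16.5, CG12702 with 14, the replication kinase gene Cdc7 with 13.5, and Pp2B-14D with 13. In the first of these 8 of 11 regions came from 1 library.

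Gene ends of 48 X genes in 7 lists were then examined. Of these genes, 34 (70.8%) had a summit within 500 bp of an end in all 4 libraries and 4 in no library. Over all genes of the interval these shares were 38.9% and 35.0%, and over all genes of the main arms 34.2% were called in all 4 libraries. Per library, control 1 called 44 listed genes, control 2 called 42, mutant 1 called 34 and mutant 2 called 40. Of the 10 genes called in some libraries, 6 lacked a call only in mutant 1: mew, parvin, Myc, CanB, Ant2 and Appl. These were 12.5% of the list, against 7.83% of all genes of the interval. A call depends on whether the summit lies inside the 500 bp, and within 1000 bp 39 of the 48 genes were called in all 4 libraries. Near Appl, X:529833-530035 was called in all 4, with ranks of 15.8%, 23.6%, 56.9% and 22.7% in controls 1 and 2 and mutants 1 and 2. In parvin, X:19746492-19746579 was called in mutant 1 at 40.1% and in both controls. In Appl and parvin the missing call thus turned on the distance limit. In mew, which encodes an integrin alpha subunit, X:13257103-13257377 ranked 2.18%, 2.13%, 2.02% and 0.807%. That region lies inside the gene, more than 1000 bp from its end, and the regions at the ends of mew had no call in mutant 1. A missing gene-end call alone is therefore no measure of a closed gene end. Act5C and lz were called in both controls and neither mutant, 4.17% of the list against 2.27% of all genes of the interval.

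In the list for muscle structure and attachment, 8 of 11 genes were called in all 4 libraries. The strongest was up, which encodes troponin T. Its region X:13593776-13594022 had rank percentiles of 0.0858%, 0.0715%, 0.107% and 0.0744% in controls 1 and 2 and mutants 1 and 2. The fold enrichment the authors gave it was 46.3, 51.4, 54.3 and 57.2 in the same order. This was the second-best mean rank of all X regions called in all 4 libraries. At its other end, X:13602444-13602815 had fold enrichments of 20.1, 18.7, 22.3 and 13.4. All 4 libraries thus had strong peaks at both ends of up. Inside the gene, X:13595256-13595491 and X:13601625-13601769 were called in both controls only, with ranks from 44.8% to 96.4%.

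The troponin I gene wupA had its strongest region at X:18116757-18117339, with fold enrichments of 15.4, 14.3, 14.1 and 13.8 and ranks of 0.901%, 1.62%, 1.42% and 1.82%, so the libraries lay close together. It had 11 regions in its span, 5 of them in all 4 libraries. The gene sd encodes Scalloped, the DNA-binding partner of Vestigial, and had its widest region inside the gene at X:15811631-15812529, with fold enrichments of 16.5, 14.3, 11 and 17. At the end of sd, X:15804275-15804785 had 19.2 and 14.5 in controls 1 and 2, against 7.82 and 7.98 in mutants 1 and 2. The genotypes did not overlap there, and the ranks were 4.40%, 6.59%, 14.1% and 21%. This was not particular to sd. Both controls ranked above both mutants at the ends of most of the 34 listed genes called in all 4 libraries, such as N, ct, Sh and Zw. How many of all X genes had this order was not counted. The reverse was seen at mys, fs(1)h and Hr4, and the genotypes overlapped at others, such as wupA. A fold enrichment is relative to its own library's background, so these values are given side by side with no test.

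Of the integrin and adhesion genes, the end of mys, the integrin beta subunit gene, ranked 5.78% and 6.27% in controls 1 and 2. In mutants 1 and 2 it ranked 5.57% and 4.49%. A peak near it also lies near fs(1)h, which ends next to mys. At an end of Vinc (vinculin), X:2222235-2222390 had ranks of 5.06%, 6.89%, 8.99% and 6.97%. The integrin alpha subunit gene if had 2 regions by the same end that all 4 libraries called. X:16783861-16783988 ranked 6.13%, 9.63%, 7.03% and 12.7%, and X:16783398-16783540 ranked 28.6%, 31.4%, 75.0% and 48.1%. Mutant 1 was the weakest library in the second and not in the first. Act5C, a cytoplasmic actin gene, had an internal region at X:5901704-5901999 in all 4 libraries with ranks of 16.1% to 20.4%, and the control-only region at its end, X:5900639-5900914, was weak at 54.0% and 70.3%.

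In the dosage compensation and sex list 3 of 4 genes were called in all 4 libraries. roX1 had the regions X:3861238-3861475, with fold enrichments of 10.4, 8.25, 7.82 and 6.87, and X:3862696-3862824, with 10.8, 9.06, 4.80 and 8.46. Both were called in each library. roX2 ranked 11.4% and 17.8% in controls 1 and 2, against 30.3% and 53.8% in mutants 1 and 2. Sxl, the switch gene of female development, ranked 17.7% and 18.9% in controls 1 and 2, against 29.1% and 22.3% in mutants 1 and 2. Most listed genes called in all 4 libraries also had both controls above both mutants, so this order was not particular to dosage compensation genes. The acetyltransferase gene mof had a summit within 500 bp of an end in control 1 alone. The region that holds it, X:5873266-5873394, was called in all 4 libraries, with ranks of 24.6%, 30.0%, 32.5% and 44.7%.

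Of the regulators, 11 of 12 were called in all 4 libraries. N, which encodes the receptor Notch, ranked 2.4%, 2.02%, 12.2% and 3.94%, and ct, which encodes the homeodomain factor Cut, ranked 3.88%, 3.04%, 9.17% and 4.85%. In both, mutant 1 was the weakest library, and both controls ranked above both mutants. Rbf, the fly retinoblastoma gene and a partner of E2F, had 1 region overlapping its span, in all 4 libraries. This region ranked 11%, 9.95%, 12% and 10.7%, so the genotypes overlapped there. Beside the gene, X:796464-796617 ranked 38.8%, 38.6%, 67.8% and 79.6%. X:801710-801830 ranked 27.4% and 42.1% in controls 1 and 2, against 84.3% in mutant 2, and was not called in mutant 1. At both flanking regions the controls ranked above any mutant call. As at N and ct, this was the order of most listed genes called in all 4 libraries, so it was not particular to Rbf. Regions that lacked a call only in mutant 1 made up 11.1% of all X regions. usp, the partner receptor of the ecdysone receptor, shares its end with Actn, so both genes have the same regions there. X:2042149-2042422 ranked 10.8%, 11.3%, 41.9% and 13.9%, with mutant 1 the weakest, and X:2041734-2041898 ranked 17%, 17%, 12% and 15.8%, with mutant 1 the strongest.

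Of 7 calcium and excitability genes 4 were called in all 4 libraries. The calcineurin subunit gene Pp2B-14D ranked 2.92% and 2.22% in controls 1 and 2, against 4.71% and 5.44% in mutants 1 and 2. At an end of CanA-14F, another such gene beside it, X:16587072-16587288 ranked 5.79%, 8.47%, 14.8% and 6.64% in the same order. CanB, the regulatory subunit gene, ranked 27.1%, 33.6% and 68.8% in both controls and mutant 2 and had no gene-end peak in mutant 1. Among the channel genes, Sh ranked 4.19% and 5.49% in controls 1 and 2, against 8.81% and 6.91% in mutants 1 and 2. The potassium channel gene eag ranked 63.9%, 57.7%, 92.7% and 75.5% in the same order. The neuronal sodium channel gene para had a gene-end peak in 0 libraries and cac in control 1 alone, at 74.8%.

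Of 7 metabolic genes 6 were called in all 4 libraries. Gapdh2, the glycolytic gene whose product acts just before Pgk, ranked 14.7%, 14.3%, 44.7% and 16.7%. Idh3a, a subunit gene of the TCA cycle enzyme isocitrate dehydrogenase, had a region at its end, X:19521752-19521877, that ranked 6.51%, 8.07%, 13.1% and 10.2%. Zw and Pgd, of the pentose phosphate pathway, ranked 16% to 44.1% and 8.60% to 15.7%. The adenine nucleotide translocase gene sesB had 7 regions in its span, 6 of them in all 4 libraries. Ant2, a second translocase gene, overlaps sesB and had 9 regions, of which X:10779410-10779610 and X:10780250-10780457 lay outside sesB. Regions in the overlap belong to both genes.

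**Figure D5:**
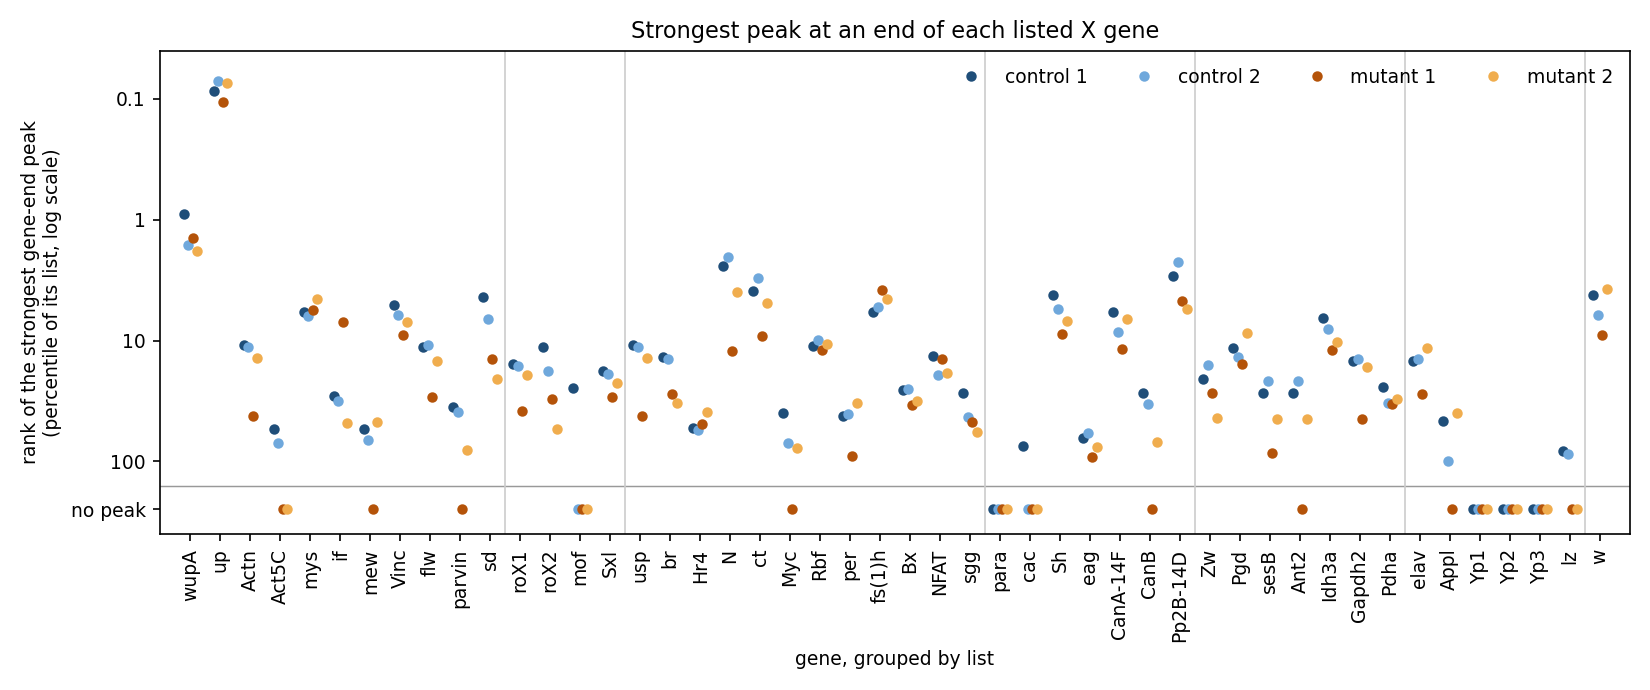
Rank of the strongest peak within 500 bp of either end of each listed X gene, as a percentile of its list on a reversed log axis, with 1 point per library and genes without such a peak on the bottom line (the points of a gene can come from different regions). The gene up stands above the rest at about 0.1%, and most single points on the bottom line among called genes are those of mutant 1.

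The 3 best-ranked regions of all 4 libraries were X:15685254-15685495, at an end of CG15599 with fold enrichments of 57.2, 57.1, 53.2 and 59.3, the up region above, and X:22433009-22433204. The last of these lay in no gene, 11023 bp from CG14621, with 52.6, 57.7, 59.2 and 37.8. In the first and the third the genotypes overlapped.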

How the data were processed

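The authors deposited 1 peak list per library, in 10 columns with no header line. Per the submitters' processing notes, the tools were bcl2fastq 2.20, cutadapt 2.3, MultiQC 1.5, Bowtie2 2.4.1, Picard and MACS2 2.2.7.1 and the build BDGP6. Their parameters, including any shift for the transposase cut, are not given in the sources used here. The deposited fold enrichment (a ratio), −log10 p and −log10 q are the authors' values against each library's own background, so they served for ranking, filtering and description inside a single list. The deposited score column was not used. The read depth is unknown. A whole-number summit pileup and a local background were solved from fold and −log10 p under a Poisson model, where −log10 p did not exceed 250. This covered 98.7% to 99.8% of peaks, with a largest misfit of 8.96e-04.

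Libraries were grouped and numbered by their titles. Positions count from 1. Autosomal peaks had summits at 0.5 to 22 Mb of 2L and 3L and 5.0 to 31.0 Mb of 3R. Genes came from RefSeq (Release 6 plus ISO1 MT, the assembly of BDGP6; 17684 genes on the main arms), which gives no strand, so both gene ends were used. No sequence was available here, and the planned motif comparison was not run. Genotypes were compared by exact permutation of libraries, and X with autosomes by exact sign flips over libraries. Named genes are the 10 with the most regions, the 5 densest of at least 5 kb, all listed genes, the 3 best-ranked regions per pattern and the extreme bins. Members and lists were chosen with earlier results of these data known. The steps were tested on simulated data in Python 3.11.15 with scipy 1.17.1.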

Additional observations from a re-analysis of the deposited data

How the results depend on the processing

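Of 153 alternative values, 136 kept their direction or stayed within 1.5 times the count. Equal list length turned the difference in the X share to -0.0235 percentage points, with an exact permutation p of 1.00, and left 4 bins with controls above mutants. With bins of 2 Mb there were 9. Leaving out 1 library, the X share difference ranged from -0.777 to 2.33 percentage points and the gene-end share difference between genotypes from -4.15 to 1.11. The count of control-only regions then lay between 521 and 1094, and that of mutant-only regions between 191 and 807, because fewer libraries have to call or miss a region. Without mutant 1 the gap between X and autosomes in regions of all libraries was 6.85 percentage points, from a range of 3.84 to 6.85. Mutant-only regions numbered 53 with −log10 q of at least 5 and 177 with a reciprocal overlap of 50%. Without the last 1 Mb of the interval, chosen as an alternative after seeing the data, the gene-end share on X exceeded that of the autosomes by 0.667 percentage points. With a replicate block the paired difference in X peaks was -515.0 (exact sign-flip permutation p = 0.500, the smallest that 2 pairs allow). Over the 6401 regions the replicate differences had an r of -0.0742, which gives no sign of pairing by number. The planned motif comparison was not run, as no genome was used here.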

Other observations

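The white gene w, whose allele w[1118] both genotypes carry, lies at X:2790599-2796466 within kirre. The region X:2790271-2790454 next to its left end was called in all 4 libraries, with fold enrichments of 18.7 and 14.9 in controls 1 and 2, against 8.89 and 15 in mutants 1 and 2. At its right end, X:2796410-2796641 was called in control 1 with a fold enrichment of 13.9 and in control 2 with 4.99, and in neither mutant. Control 1 also had X:2796120-2796305. None of the 7 regions within the gene was called in all 4 libraries. This locus was listed because both genotypes carry the allele, and its regions were singled out after their values were seen.

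Peaks on Y numbered 938 in control 1, 846 in control 2, 638 in mutant 1 and 871 in mutant 2. The ratio of peaks per Mb on X to that on the autosomes was 0.988, 0.860, 0.882 and 1.05 in the same order. The median local background of X peaks was 0.999 to 1.03 times that of autosomal peaks. Of X peaks 39.4% to 46.1%, and of autosomal peaks 42.6% to 47.3%, sat at the most frequent background of their library. These medians therefore lie close to a shared value, and the ratio has little room to differ from 1.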
